A study of Rattus norvegicus with 10 samples.

Results

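The mitochondrial ribosomal proteins were measured by 66 of the 23188 probesets tested, 42 for symbols of the large subunit (Mrpl) and 24 for symbols of the small subunit (Mrps). They were chosen by symbol alone, as every probeset whose name in the platform annotation is Mrpl or Mrps followed by a number and at most 1 letter, and each of the 66 genes had a single probeset. The cells were nucleus pulposus cells, from the soft core of the intervertebral disc, of male Sprague Dawley rats 3 to 4 months of age. In 5 samples (ShBNIP3) they had been transduced with lentivirus carrying a short hairpin RNA against Bnip3, and in 5 samples (ShCtrl) with the control hairpin in pLKO.1, and RNA was taken 4 days later. All 10 samples therefore carried a lentiviral hairpin, and untransduced cells were not analysed here. No label says whether the samples of a group are separate cultures or animals, or how many hairpin sequences were used, so the p-values speak only to variation among these 10 samples, part or all of which may be technical.

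Mitochondrial ribosomes translate the few proteins encoded by mitochondrial DNA, which are all subunits of the respiratory chain and ATP synthase. Their RNA comes from the mitochondrial genome, but every protein of both subunits is encoded in the nucleus, made in the cytosol and imported. Some of these proteins have counterparts in bacterial ribosomes and others were added in the mitochondrial lineage. Nucleus pulposus cells live with little oxygen and rely largely on glycolysis. Bnip3 is a receptor on the outer mitochondrial membrane through which mitochondria are handed to autophagy.

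Levels are log2 values, 1 per probeset and array. A difference is the ShBNIP3 mean minus the ShCtrl mean of these log2 values, tested with limma over all probesets with Benjamini-Hochberg adjustment. "Rose" and "fell" mean an adjusted p under 0.05, and SE is limma's standard error. Bnip3 itself was at 11.14, 11.26, 10.59, 11.31 and 12.68 on ShBNIP3 arrays 6 to 10, against 14.29, 14.29, 13.94, 15.97 and 14.54 on ShCtrl arrays 1 to 5. The groups did not overlap (difference -3.21, SE 0.40, limma adjusted p = 0.0002, exact two-sided permutation p = 0.0079, the smallest that 5 against 5 can give). ShBNIP3 array 10 and ShCtrl array 4 stood apart from their groups, with mean Pearson correlations to the other arrays of their group of 0.986 and 0.983, where the other 8 arrays had 0.992. Results that turn on these arrays are given with and without them. Of 10 nucleus pulposus markers measured, Acan, Col2a1 and Car3 were above background on every array, while the notochordal genes Krt8, Krt18, Krt19, Tbxt, Shh and Nog were at background on all 10. Of these 10 markers 2 fell and 0 rose: Car3 by 1.29 (limma adjusted p = 0.0048) and Col2a1 by 0.67 (limma adjusted p = 0.013) on the log2 scale. Acan differed by -0.90 (limma adjusted p = 0.19) and, without arrays 4 and 10, by -0.97 (limma adjusted p = 0.02). The mean level of the nucleus pulposus list lay between 6.27 and 6.47 in ShBNIP3 and between 6.58 and 6.89 in ShCtrl. Of 8 fibroblast and annulus fibrosus markers 5 fell and 0 rose (62.5% called). Of 9 macrophage and leukocyte markers 3 rose and 0 fell (33.3% called), 7 of these 9 being at background throughout. Over all probesets 15.5% were called, 7.61% higher and 7.87% lower. The 3 macrophage and leukocyte markers that rose were Cd14, Cd68 and Cd53. Cd53 was at background on all 10 arrays. For Cd68 the groups overlapped, with ShCtrl array 4 at 7.98 and ShBNIP3 array 6 at 7.86. The mean level of the fibroblast list lay between 13.26 and 13.53 in ShBNIP3 and between 13.68 and 13.82 in ShCtrl, that of the macrophage list between 5.17 and 5.50 and between 4.82 and 5.24. Of the endothelial, erythroid and skeletal muscle markers, all 7, 4 and 6 measured were at background on every array. The part of these marker shifts in the results for ribosomal proteins was not tested.

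The mitochondrial ribosomal proteins did not move as a block. In ShBNIP3 cells 7 members rose and 4 fell, 16.7% of the 66, where 15.5% of all probesets were called, 7.61% higher and 7.87% lower. The share called was close to that of the whole array. However, 11427 of all 23188 probesets were at background on every array, and only 2 of the 66 members were. Among the brighter 50% of probesets 17 of 64 members were called, and 3909 of all 11594, so the share called was lower among members. The shares of all probesets that follow include those at background. Differences ran from -1.21 to 0.88 with a median of 0.15 and the middle 50% between -0.15 and 0.33. The median of all probesets was 0.02. Differences were above 0 for 41 of 66 members (62.1%), against 53.7% of all probesets. By unadjusted p (under 0.05), 17 members were higher (25.8%) and 8 lower (12.1%), against 14.0% and 12.7% of all probesets. The groups did not overlap for 13 members (19.7%, against 12.9% of all probesets, 6.6% higher and 6.29% lower). A change of at least 2-fold was reached by 2 members, both lower, where 4.18% of all probesets reached it.

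**Figure D1:**
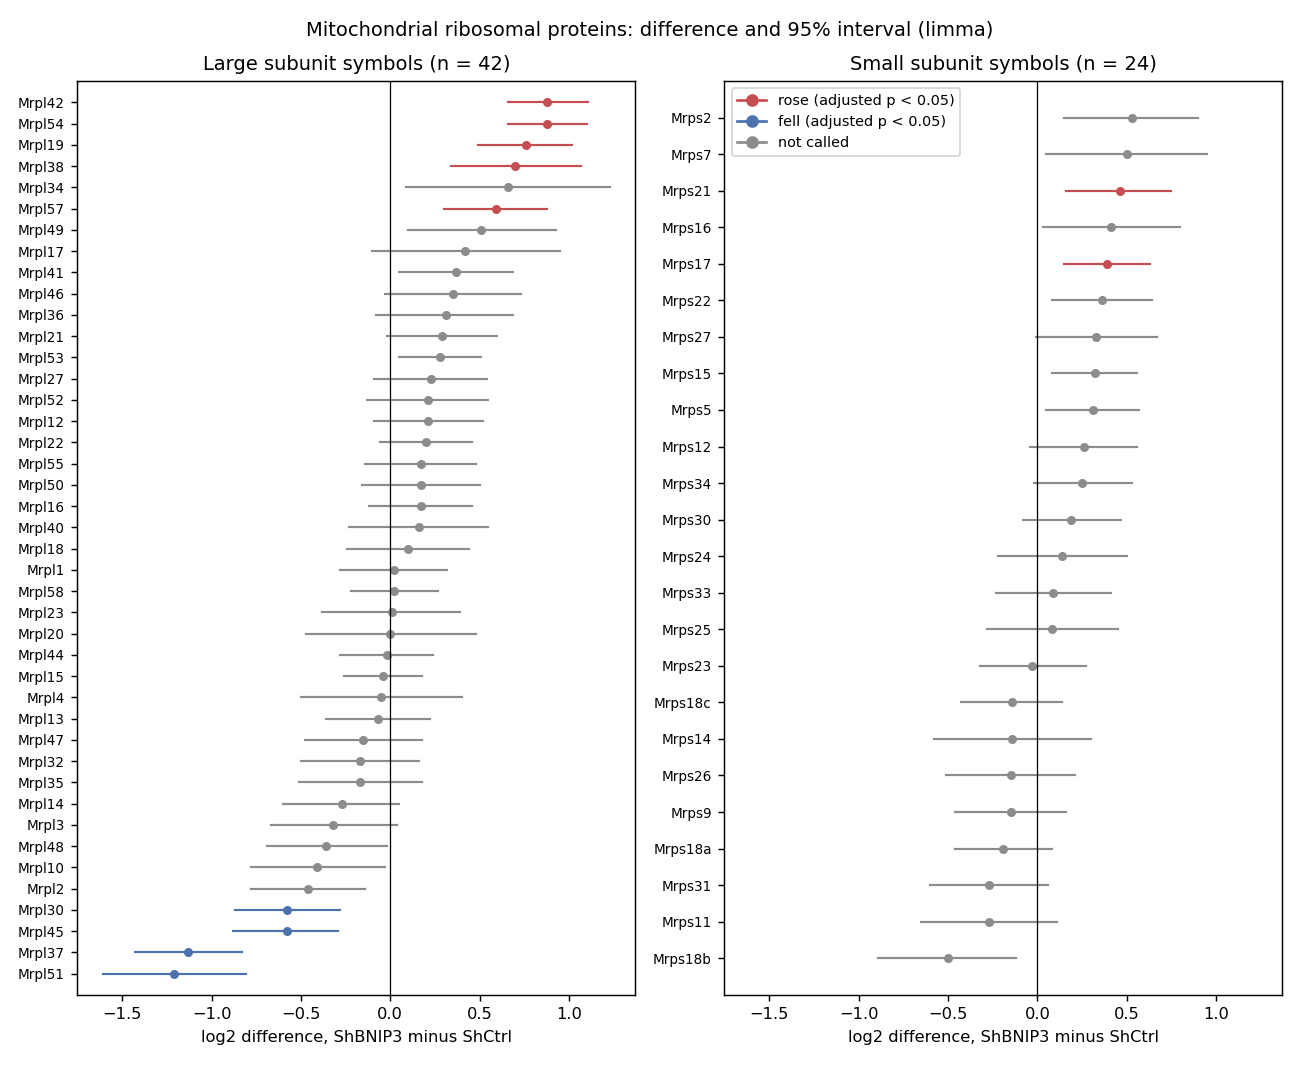
Log2 difference (ShBNIP3 minus ShCtrl, x axis) of each mitochondrial ribosomal protein, 42 with large subunit symbols on the left and 24 with small subunit symbols on the right. Points are limma estimates from 5 arrays a group, lines their 95% intervals, and colours mark members that rose, fell or were not called; the 4 that fell are all of the large subunit, from -1.21 (Mrpl51) to -0.58.

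Of the 42 large subunit members, 5 rose and 4 fell. The largest change was the fall of Mrpl51, a mitochondria-specific protein of the large subunit. Mrpl51 was at 8.03, 7.60, 7.86, 7.71 and 7.78 on ShBNIP3 arrays 6 to 10, against 9.17, 9.39, 8.89, 8.34 and 9.23 on ShCtrl arrays 1 to 5. Every ShBNIP3 array was below every ShCtrl array, with ShCtrl array 4 the nearest. Mrpl51 was 2.32-fold lower (log2 -1.21, SE 0.18, limma adjusted p = 0.00072), and without arrays 4 and 10 the difference was -1.37. Mrpl37, another mitochondria-specific large subunit protein, was at 9.51, 9.65, 9.27, 9.57 and 9.12 in ShBNIP3 and at 10.78, 10.56, 10.64, 10.27 and 10.55 in ShCtrl. Here too no arrays of the groups overlapped, and the fall was 2.19-fold (log2 -1.13, SE 0.14, limma adjusted p = 0.00016).

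The other falls were about 1.5-fold. Mrpl45, which in the mammalian ribosome lies by the exit of the tunnel for the new protein chain and contacts the inner membrane, was at 10.44, 10.12, 10.15, 10.05 and 10.32 in ShBNIP3, against 10.53, 10.62, 10.98, 11.08 and 10.81 in ShCtrl. The highest ShBNIP3 array and the lowest ShCtrl array were close but did not cross, and the fall was 1.5-fold (log2 -0.58, SE 0.14, limma adjusted p = 0.012). Mrpl30, which has a bacterial counterpart, was at 8.41, 8.01, 8.24, 8.37 and 8.21 in ShBNIP3, against 9.03, 8.81, 8.87, 8.46 and 8.95 in ShCtrl. It fell 1.49-fold (log2 -0.58, SE 0.14, limma adjusted p = 0.011), again without overlap and with ShCtrl array 4 nearest. RefSeq names 9 pseudogenes of Mrpl30, and reads of their transcripts by this probeset cannot be told apart from those of the gene.

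The platform annotation writes 3 further large subunit genes in lower case, so they fall outside the symbol pattern, and they are given here beside the members. One of them changed as much as Mrpl37. The gene annotated as mrpl9, which has a bacterial counterpart, was at 8.26, 8.27, 7.91, 8.36 and 8.67 in ShBNIP3, against 9.30, 9.54, 9.26, 9.57 and 9.43 in ShCtrl. It fell 2.18-fold (log2 -1.12, SE 0.14, limma adjusted p = 0.00022), with no overlap. The gene annotated as mrpl11 differed by 0.41 (SE 0.15, limma adjusted p = 0.088), also without overlap, and mrpl24 by 0.30 (SE 0.21, limma adjusted p = 0.412). With these 3 genes, 7 of 69 mitochondrial ribosomal proteins rose and 5 fell (17.4%).

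The rises in the large subunit reached less than 2-fold, and were largest for Mrpl42 and Mrpl54. Mrpl42, a mitochondria-specific protein, was at 13.29, 13.12, 13.08, 12.99 and 13.05 in ShBNIP3, against 12.33, 12.20, 12.18, 12.14 and 12.26 in ShCtrl. Mrpl54, also mitochondria-specific, was at 13.36, 13.25, 13.27, 13.28 and 13.25 in ShBNIP3, against 12.32, 12.38, 12.48, 12.32 and 12.50 in ShCtrl. For both, the gap between the groups was wider than the range within either, and arrays 4 and 10 lay with their groups. Mrpl42 rose 1.85-fold (log2 0.88, SE 0.11; adjusted p = 0.00013 in limma) and Mrpl54 1.84-fold (log2 0.88, SE 0.10; adjusted p = 9.2e-05 in limma). The SD of Mrpl54 among ShBNIP3 arrays, 0.05, was the smallest of the 66 members in that group, whose median SD was 0.18.

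Mrpl19, counterpart of a bacterial protein, was at 9.30, 9.19, 9.37, 9.63 and 9.51 in ShBNIP3, against 8.71, 8.52, 8.76, 8.46 and 8.78 in ShCtrl, a 1.69-fold rise (log2 0.76, SE 0.12; adjusted p = 0.0012 in limma). Mrpl38, a mitochondria-specific protein of the central protuberance of the large subunit, was at 7.95, 8.09, 7.97, 8.33 and 7.70 in ShBNIP3, against 7.31, 7.39, 7.62, 6.77 and 7.44 in ShCtrl. Its lowest ShBNIP3 array (10) and highest ShCtrl array (3) nearly met, and ShCtrl array 4 was far below its group. The rise of Mrpl38 was 1.63-fold (log2 0.70, SE 0.17, limma adjusted p = 0.013) and 0.65 on the log2 scale without arrays 4 and 10. Mrpl57, mitochondria-specific, was at 12.59, 12.48, 12.10, 12.37 and 12.01 in ShBNIP3, against 11.82, 11.72, 11.81, 11.60 and 11.63 in ShCtrl, a 1.51-fold rise (log2 0.59, SE 0.13; adjusted p = 0.0091 in limma). No arrays of the groups overlapped for these 3 genes. The 9 calls of the large subunit held in all 10 leave-one-out fits, each without 1 array.

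**Figure D2:**
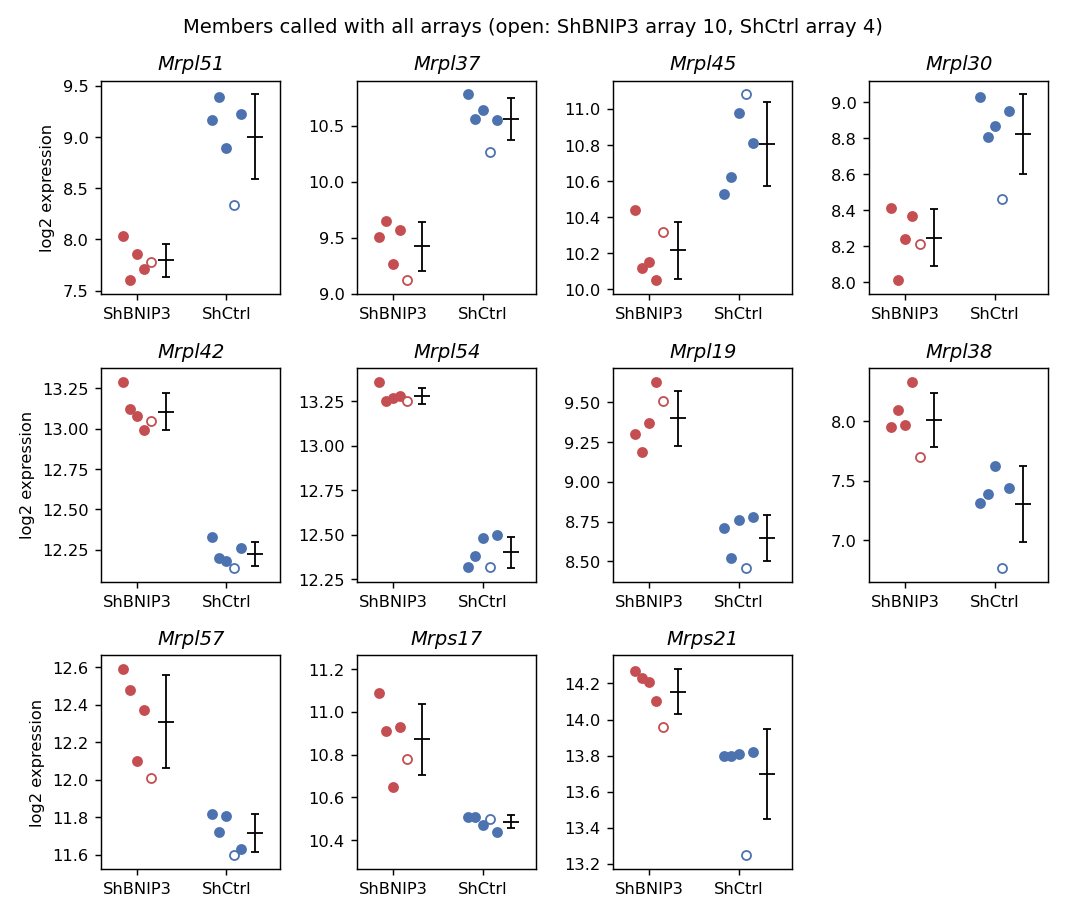
Log2 expression (y axis, a scale of its own for each gene) of the 11 called members on each of 5 ShBNIP3 and 5 ShCtrl arrays; open points are ShBNIP3 array 10 and ShCtrl array 4, and bars are mean ± SD. The groups do not overlap in any panel, and the gap is narrowest in Mrpl30, Mrpl38 and Mrpl45.

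Promoter windows of RefSeq (build GRCr8, 250 bases before to 50 after 1 start taken per gene) were found for 55 of the 66 members. Those of the 2 members with the largest falls and the 2 with the largest rises are shown, so that genes that went opposite ways can be read side by side. Each is printed 5′ to 3′ on the gene's own strand, and capitals mark matches on either strand to 1 of the 7 motifs listed after them.
Mrpl51 (fell; chr4:159677738-159678037, plus strand): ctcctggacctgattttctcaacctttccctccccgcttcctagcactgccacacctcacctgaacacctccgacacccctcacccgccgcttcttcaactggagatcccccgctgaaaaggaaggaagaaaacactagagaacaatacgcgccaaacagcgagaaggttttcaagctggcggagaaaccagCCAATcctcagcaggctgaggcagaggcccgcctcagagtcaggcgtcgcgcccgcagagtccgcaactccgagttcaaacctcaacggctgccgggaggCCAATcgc
Mrpl37 (fell; chr5:127074918-127075217, minus strand): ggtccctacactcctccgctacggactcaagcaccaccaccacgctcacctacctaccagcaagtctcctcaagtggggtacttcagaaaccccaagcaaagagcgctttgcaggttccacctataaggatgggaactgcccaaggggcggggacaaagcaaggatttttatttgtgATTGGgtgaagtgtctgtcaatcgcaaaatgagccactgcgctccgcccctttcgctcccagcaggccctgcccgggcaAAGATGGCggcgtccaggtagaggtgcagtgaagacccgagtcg
Mrpl42 (rose; chr7:32028473-32028772, minus strand): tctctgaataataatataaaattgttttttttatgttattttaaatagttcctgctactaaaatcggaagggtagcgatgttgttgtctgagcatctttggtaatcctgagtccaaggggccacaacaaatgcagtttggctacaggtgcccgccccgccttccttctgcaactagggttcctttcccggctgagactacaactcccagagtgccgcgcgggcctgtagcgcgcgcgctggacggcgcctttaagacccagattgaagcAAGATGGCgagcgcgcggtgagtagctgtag
Mrpl54 (rose; chr7:9103275-9103574, plus strand): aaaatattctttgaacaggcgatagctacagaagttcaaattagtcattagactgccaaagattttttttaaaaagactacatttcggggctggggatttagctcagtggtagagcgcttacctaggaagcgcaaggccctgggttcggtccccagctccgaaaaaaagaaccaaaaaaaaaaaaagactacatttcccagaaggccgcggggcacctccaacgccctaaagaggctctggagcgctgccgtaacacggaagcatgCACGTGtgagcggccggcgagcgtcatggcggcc
Mrpl37, which fell, and Mrpl42, which rose, both held a YY1 motif just after the start on which the window is placed. For both genes RefSeq's outer gene boundary lies upstream of that start. Mrpl54 held an E-box after its start, and Mrpl51 and Mrpl37 held CCAAT boxes.

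Over all members with a window, 7 motifs were counted and set beside the first windows of 18999 protein-coding genes. NRF1, ETS factors such as GABP, and YY1 are known to act on nuclear genes for mitochondrial proteins. The YY1 motif AAGATGGC was in 13 of 55 member windows (23.6%, against 3.92% of all), the ETS motif CCGGAAG in 19 (34.5%, against 11.2%) and the NRF1 consensus in 9 (16.4%, against 6.08%). The E-box CACGTG, bound by Myc and related factors, was in 6 (10.9%, against 7.26%), and ACGTG, a core of hypoxia response elements that every E-box match also holds, in 13 (23.6%, against 20.4%). The ATF4 composite element TGATGNAA was in 1 (1.82%, against 3.33%), and CCAAT in 25 (45.5%, against 38.4%). The YY1 motif was in 1 of 5 members that rose, 1 of 4 that fell and 11 of 46 not called, and the ETS motif in 2 of 5, 1 of 4 and 16 of 46. A match is only a match of letters, and binding was not measured.

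The remaining 33 large subunit members were not called. Among them Mrpl34, which has a bacterial counterpart, had the largest positive difference and the widest spread. It was at 8.08, 8.37, 8.94, 8.91 and 7.94 in ShBNIP3, against 7.88, 7.76, 8.17, 6.93 and 8.21 in ShCtrl, so the groups overlapped (difference 0.66, 95% interval 0.09 to 1.23, limma adjusted p = 0.123). Mrpl49, mitochondria-specific, differed by 0.51 (95% interval 0.10 to 0.93, limma adjusted p = 0.095) and by 0.38 without arrays 4 and 10. On the other side, Mrpl2, which forms part of the core of the large subunit, was at 6.38, 6.71, 7.01, 6.41 and 6.33 in ShBNIP3, against 7.25, 6.83, 7.07, 7.00 and 7.00 in ShCtrl, overlapping through ShBNIP3 array 8. Its difference of -0.46 (SE 0.15) missed the threshold with a limma adjusted p of 0.055, and it was above background on 7 of 10 arrays. Mrpl12, which sits on the stalk that recruits translation factors, was at background on all arrays and gets no fold. Mrpl17, the large subunit probeset with the highest signal, averaged 13.77 ± 0.42 in ShBNIP3 and 13.34 ± 0.46 in ShCtrl (SD, n = 5 each; limma adjusted p = 0.299).

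Of all 55 members not called, differences lay between -0.50 and 0.66. The 95% intervals of 35 lay within 1.5-fold either way and those of 54 within 2-fold, the exception being Mrpl34.

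Of the 24 members with small subunit symbols, 2 rose and 0 fell, while 8 were higher (33.3%) and 1 lower (4.17%) by limma's unadjusted p (under 0.05), against 14.0% and 12.7% of all probesets. Without arrays 4 and 10, 3 small subunit members rose and 2 fell (20.8%, against 19.9% of all probesets). The 2 that rose with all arrays have bacterial counterparts. Mrps21 was at 14.27, 14.23, 14.21, 14.10 and 13.96 in ShBNIP3, against 13.80, 13.80, 13.81, 13.25 and 13.82 in ShCtrl, where array 4 alone was far below. The rise was 1.37-fold (log2 0.46, SE 0.14; adjusted p = 0.038 in limma). Mrps17 was at 11.09, 10.91, 10.65, 10.93 and 10.78 in ShBNIP3, against 10.51, 10.51, 10.47, 10.50 and 10.44 in ShCtrl, a 1.31-fold rise (log2 0.39, SE 0.11; adjusted p = 0.032 in limma). The groups did not overlap for either gene, but both calls were near the threshold. Mrps21 passed in only 1 of 10 leave-one-out fits (that without ShBNIP3 array 10; adjusted p at most 0.081), and Mrps17 in 3 of 10 (without ShCtrl array 4, ShBNIP3 array 8 or ShBNIP3 array 10; adjusted p at most 0.077). In each of the 5 fits without ShCtrl array 1, 2 or 5 or ShBNIP3 array 7 or 9, 0 small subunit members were called. Without ShBNIP3 array 10 there were 4.

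Mrps2, which has a bacterial counterpart, was at 8.54, 8.82, 9.39, 8.91 and 9.17 in ShBNIP3, against 8.33, 8.52, 8.63, 8.05 and 8.68 in ShCtrl (difference 0.53, SE 0.17, limma adjusted p = 0.062), overlapping through ShBNIP3 array 6. Mrps34, the small subunit probeset with the lowest signal, was at background on all arrays. The symbols Mrps30 and Mrps18a read as small subunit, but in the mammalian ribosome both proteins sit in the large one. Mrps30 differed by 0.19 (SE 0.13, limma adjusted p = 0.378) and Mrps18a by -0.19 (SE 0.12, limma adjusted p = 0.386). Placing them by structure left the counts at 9 of 44 large and 2 of 22 small subunit members. The share called was 21.4% among large and 8.33% among small subunit symbols, against 15.5% of all probesets, and the medians were 0.13 and 0.17. Whether the subunits differ was not tested.

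Among large subunit symbols the calls lay mostly among proteins classed as without a counterpart in bacterial ribosomes. Of 17 mitochondria-specific members 4 rose and 3 fell (41.2%). Of 25 with bacterial counterparts 1 rose and 1 fell (8.00%), or 1 and 2 of 28 with the 3 lower-case symbols. Over all probesets 15.5% were called, 7.61% higher and 7.87% lower. However, all 17 mitochondria-specific members and 23 of the 25 were above background on every array. Among the brighter 50% of probesets, fitted alone, 3909 of 11594 were called. The SD of the differences was 0.62 among the 17 mitochondria-specific members and 0.32 among the 25 with bacterial counterparts. Among small subunit symbols, limma called 0 of 11 mitochondria-specific members (1 higher and 1 lower by unadjusted p under 0.05). These 11 include Mrps30 and Mrps18a, which sit in the large subunit. Of 13 with bacterial counterparts limma called 2 (15.4%, against the same 15.5% of all probesets). These classes follow the standard names of the proteins, were set with the results known and were not tested against each other.

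**Figure D3:**
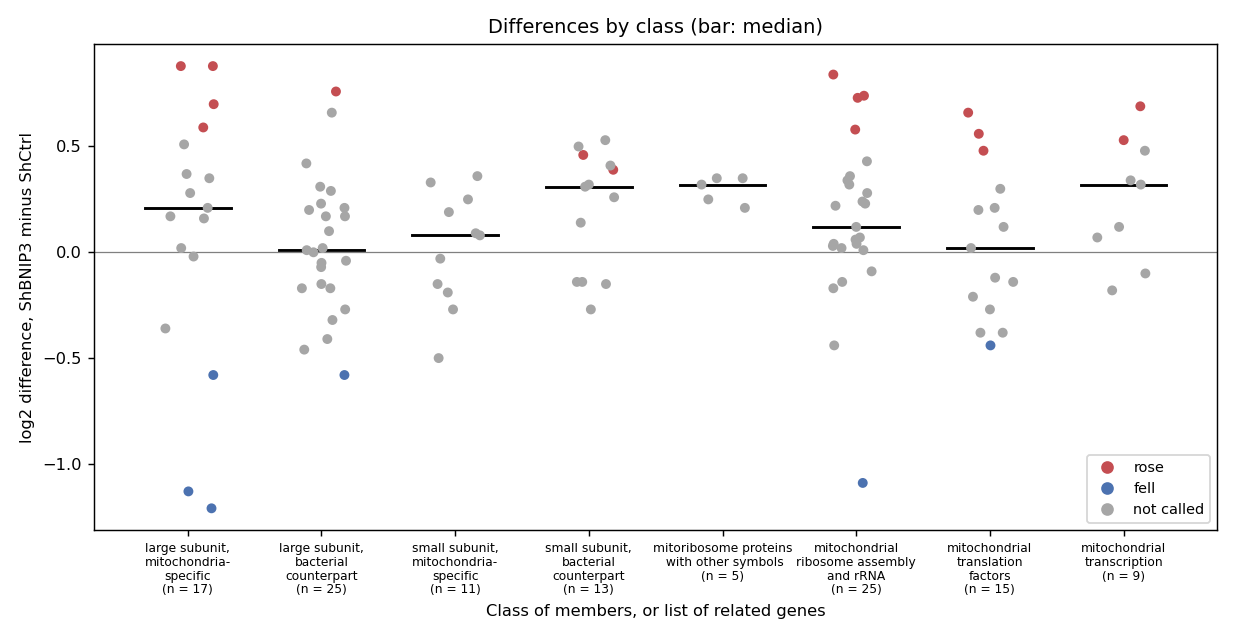
Log2 difference (ShBNIP3 minus ShCtrl, y axis) of each member by subunit symbol and class, and of genes in 4 lists of related mitochondrial functions; each point is a gene, coloured by its call, and bars are medians. The large, mitochondria-specific class holds the extremes in both directions (-1.21 to 0.88), and its median is 0.21.

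ShCtrl array 4 was low in this gene family. There the median deviation of the members from the mean of the other 4 ShCtrl arrays was -0.34, with 54 of 66 below that mean, while the same median over all probesets was -0.02. On ShBNIP3 array 10 the median was -0.09, with 41 of 66 below, and on the other 8 arrays it was between -0.04 and 0.14. Without arrays 4 and 10 the median difference between the groups was 0.09 for the members and 0.03 for all probesets. The difference was then above 0 for 37 of 66 members. Bnip3 was highest of its group on both arrays.

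**Figure D4:**
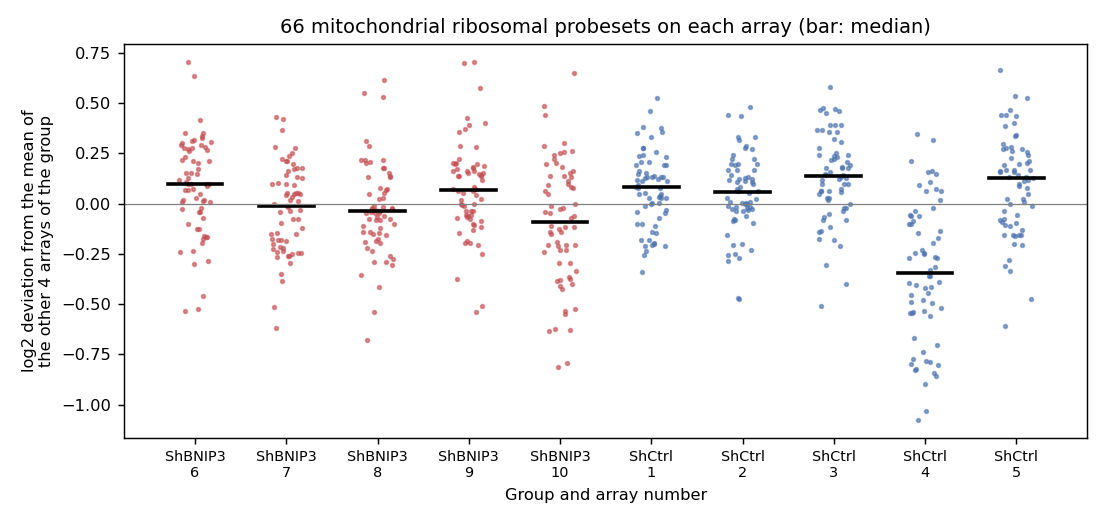
Deviation of each of the 66 probesets on each array from the mean of the other 4 arrays of its group (log2, y axis), by array number (x axis, 5 ShBNIP3 arrays left of 5 ShCtrl arrays); bars are medians. ShCtrl array 4 is lowest, with a median of -0.34.

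Without these arrays the balance of the calls changed, to 8 members that rose and 9 that fell (25.8%, against 19.9% of all probesets, 9.84% higher and 10.1% lower). All 11 members called with all arrays were called again in the same direction, and 6 were added, 5 of them lower. Mrps18b, a paralog of Mrps18a, was at 10.38, 10.11, 10.09, 10.30 and 9.82 in ShBNIP3, against 10.80, 10.27, 10.93, 10.23 and 11.0 in ShCtrl, with ShCtrl arrays 2 and 4 inside the ShBNIP3 range. Its difference was -0.50 (limma adjusted p = 0.08) with all arrays and -0.53 (limma adjusted p = 0.043) without the pair. Mrpl10, at the base of the stalk of the large subunit, was at 10.20, 9.99, 9.77, 10.06 and 9.71 in ShBNIP3, against 10.45, 10.40, 10.49, 9.73 and 10.67 in ShCtrl. Only ShCtrl array 4 overlapped the ShBNIP3 range, and the difference was -0.50 (limma adjusted p = 0.017) without the pair and -0.41 (limma adjusted p = 0.151) with it.

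Mrps11, counterpart of a bacterial protein, lay at 9.49, 9.21, 9.18, 9.36 and 9.61 in ShBNIP3, against 9.60, 9.83, 9.93, 9.00 and 9.83 in ShCtrl, with array 4 the lowest of all 10. Mrpl3, a counterpart of a bacterial protein near the peptidyl transferase centre, lay at 7.80, 8.02, 7.51, 7.91 and 8.46 in ShBNIP3, against 8.26, 8.39, 8.28, 8.04 and 8.32 in ShCtrl, with ShBNIP3 array 10 the highest of all. Mrpl48, of the central protuberance, averaged 8.04 ± 0.16 in ShBNIP3 and 8.40 ± 0.31 in ShCtrl (SD, n = 5 each). Without the pair these 3 genes differed by -0.49, -0.50 and -0.49 (limma adjusted p = 0.018, 0.019 and 0.035), and with all arrays by -0.27, -0.32 and -0.36 (limma adjusted p = 0.38, 0.241 and 0.165). Mrps7, counterpart of a bacterial protein, was the added rise. It was at 11.39, 11.28, 11.28, 11.26 and 10.49 in ShBNIP3, against 10.94, 10.74, 10.74, 9.98 and 10.80 in ShCtrl, and its difference was 0.50 in both fits, with a limma adjusted p of 0.142 with all arrays and 0.0083 without the pair.

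**Figure D5:**
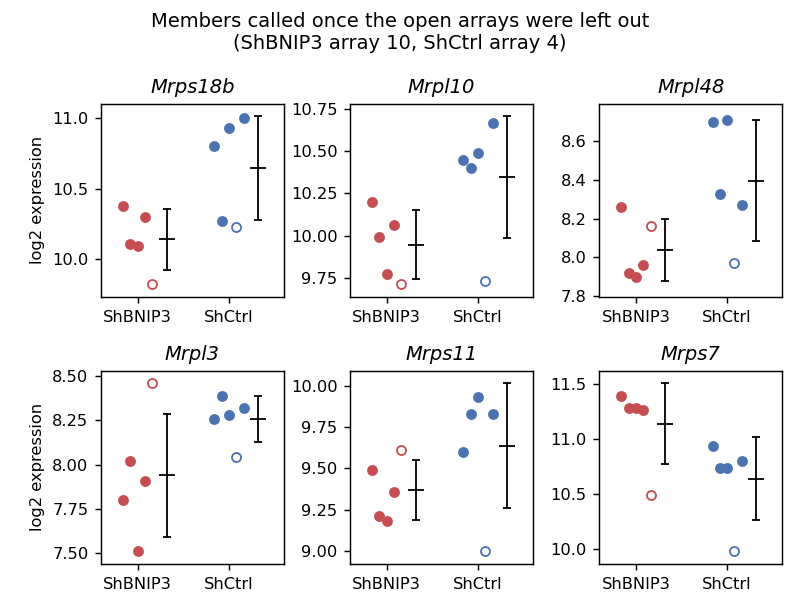
Log2 expression (y axis, a scale of its own for each gene) of the 6 members called once ShBNIP3 array 10 and ShCtrl array 4 (open points) were left out, by group; bars are mean ± SD over 5 arrays. The filled points of the groups are apart in 5 of the 6 panels, all but Mrps18b.

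Several members start close to another gene that runs the opposite way. By the starts of the promoter windows, 17 of the 55 members had a protein-coding gene starting on the other strand within 1000 bases, and 14 of these partners had a named probeset. The differences of member and partner had opposite signs in 10 of the 14, among which 1 pair of members is counted from both sides. In some of these the partner's difference was smaller than its SE, as for Eme1 (-0.07, SE 0.23) and Ptcd2 (-0.12, SE 0.13). Background lay between 6.5 and 6.78 across the arrays, and Eme1 averaged 4.71 in ShBNIP3 and 4.78 in ShCtrl. Other pairs of genes were not compared, so the count has no share beside it. Mrpl46, a large subunit protein of the central protuberance, and Mrps11 are such a pair and differed by 0.35 (SE 0.18) and -0.27 (SE 0.18), with overlapping groups for both. Mrpl47, counterpart of a bacterial protein, differed by -0.15, while its partner Ndufb5, a subunit of respiratory complex I, rose by 0.47 (SE 0.11, limma adjusted p = 0.01). Next to Mrpl30, which fell, Mitd1 differed by 0.13 (SE 0.17, limma adjusted p = 0.71). Among the 4 pairs of the same sign, Pnpla7 rose by 0.85 (limma adjusted p = 0.021) beside Mrpl41, which differed by 0.37. Pnpla7 averaged 7.4 in ShBNIP3 and 6.55 in ShCtrl, the latter within the range of the background. Tcp1 rose by 0.45 (limma adjusted p = 0.023) beside Mrpl18, which differed by 0.10.

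Of 54 genes in the lists of related mitochondrial functions, 9 rose and 2 fell (20.4%, against 15.5% of all probesets, 7.61% higher and 7.87% lower). Without arrays 4 and 10, 11 rose and 5 fell (29.6%, against 19.9%). Fastkd2 (0.48) and Ssbp1 (0.43) were then added to those that rose, and Oxa1l (-0.46), Mtrf1l (-0.48), Mtif2 (-0.41) and Nsun4 (-0.46) to those that fell, while Mrrf lost its call (limma adjusted p = 0.075). The 5 ribosomal proteins of mitochondria with other symbols (Dap3, Ptcd3, Aurkaip1, Chchd1 and Gadd45gip1) all had differences above 0, from 0.21 to 0.35, but 0 of 5 passed (in limma, 1 higher and 0 lower by unadjusted p under 0.05). Of 25 genes for assembly of the mitochondrial ribosome and modification of its RNA, 4 rose and 1 fell, with a median difference of 0.12. The one that fell was Eral1, a GTPase that binds the small subunit RNA during assembly. Eral1 was at 7.17, 6.94, 7.49, 6.96 and 6.77 in ShBNIP3, against 8.21, 8.2, 8.08, 8.14 and 8.18 in ShCtrl, and fell 2.14-fold without overlap (log2 -1.09, SE 0.14, limma adjusted p = 0.00019). The RNA helicase Dhx30 rose 1.79-fold (log2 0.84, SE 0.16; adjusted p = 0.004 in limma), and Mterf3, which in mice acts in transcription and large subunit assembly, 1.65-fold. The ribosomal RNA methyltransferase Mrm1 rose by 0.74 on the log2 scale (limma adjusted p = 0.0067), and was above background on 5 of 5 ShBNIP3 and 2 of 5 ShCtrl arrays. Rcc1l rose by 0.58 (limma adjusted p = 0.048), and 7 of 10 leave-one-out fits put it over the threshold.

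Among 15 translation factors and mRNA-binding proteins 3 rose and 1 fell, with a median of 0.02. The share called was 26.7%, against 15.5% of all probesets, 7.61% higher and 7.87% lower. The elongation factor Gfm1 was at 9.68, 9.94, 10.14, 10.03 and 9.75 in ShBNIP3, against 9.46, 9.34, 9.12, 9.06 and 9.24 in ShCtrl, a 1.58-fold rise (log2 0.66, SE 0.13; adjusted p = 0.0039 in limma). Slirp, which stabilises mitochondrial mRNAs, rose 1.48-fold (limma adjusted p = 0.01), and Mtfmt, which formylates the initiator tRNA, 1.39-fold (limma adjusted p = 0.023, but above 0.05 in 3 leave-one-out fits of 10). The recycling factor Mrrf fell 1.36-fold with a limma adjusted p of 0.048, and none of the 10 leave-one-out fits called it. The elongation factor Tufm differed by -0.14 (SE 0.11, limma adjusted p = 0.485). Of 9 genes for copying and transcribing mitochondrial DNA 2 rose and 0 fell (22.2%, against the same 15.5% of all probesets). Their median difference was 0.32, and 0.18 without arrays 4 and 10. The 2 that rose were the transcription factor Tfb2m (1.61-fold) and Polg2, the accessory subunit of the mitochondrial DNA polymerase (log2 0.53, limma adjusted p = 0.0085). Polg2 was above background on 3 of 5 ShBNIP3 and 0 of 5 ShCtrl arrays and gets no fold. Transcripts of the mitochondrial genome, which these ribosomes translate, were not analysed here.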

How the data were processed

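The arrays were GeneChip arrays. The authors deposited 1 log2 expression value per probeset and array, normalized by sst-rma per the labels. Transcriptome Analysis Console is named, per the submitters' processing notes, and its version is not given in the sources used here. The values were used as deposited. Groups come from the sample titles, and part of the extraction protocol describes other tissue and was not used. After removal of 1646 control probesets, 23188 were tested with limma 3.58.1 (lmFit, eBayes, 2 groups, no covariates) in R 4.3.3, and the fit was tested on simulated data. The number of arrays limits the precision. Background was the 95th percentile of 23 antigenomic probesets on each array. Symbols come from the platform annotation, where 15049 probesets have 1 symbol, 0 several and 8139 none, and all 66 members were found in RefSeq by Entrez identifier. No member shared its values with another probeset, and 21 have a named pseudogene in RefSeq. The text names Bnip3, Mrpl51, Mrpl37, Mrpl42, members called with all arrays or without arrays 4 and 10, in each subunit the 2 uncalled members with the largest differences each way and those with the highest and lowest signal, members whose symbol and place differ, and called genes of the related lists. Of 75 protein-coding RefSeq genes whose symbol follows the pattern, 9 had no named probeset, and neither had Mrps36, which the rule also names. Other genes named (mrpl9, mrpl11 and mrpl24, partner genes, Mrpl41, Mrpl18, Mrpl46, Mrpl47, Tufm, genes of the lists called without arrays 4 and 10, marker genes), the motifs and the promoters printed were chosen after their values were seen. Members and lists were chosen with earlier results of these data known. Alternatives covered variance model, normalization, centring, dim probesets, array weights, call rule and arrays left out.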

Additional observations from a re-analysis of the deposited data

Results flagged for a closer look

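Among the 26 members named by rule and the medians of both subunits, 56 groups of 5 samples were screened for a sample far from the rest (gap over range above 0.71), which chance gives in about 1 of 20 groups, and 4 were found. In all 4 the outlying array was the lowest, and it was ShBNIP3 array 10 once and ShCtrl array 4 in 3 cases. The 56 groups come from the same 10 arrays and are not independent, and 1 naming rule used the calls without arrays 4 and 10. The count of 4 was therefore not tested against chance. Mrps7 was at 10.49 on ShBNIP3 array 10, where the other ShBNIP3 arrays were between 11.26 and 11.39, and at 9.98 on ShCtrl array 4, where the others were between 10.74 and 10.94. Mrps21 was at 13.25 on ShCtrl array 4 and between 13.80 and 13.82 on the others. Mrpl17 was at 12.52 on that array and between 13.50 and 13.63 on the others.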

How the results depend on the processing

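No paired analysis was possible because the title numbers 1 to 5 and 6 to 10 are not shared between the groups. In place of 11 members, 17 were called without arrays 4 and 10 (5 of them small subunit), where 19.9% of all probesets were called. The cause of that shift was not tested. Among the brighter 50% of probesets, where fewer were tested, 17 of 64 members were called (6 of 23 small subunit). Of all 11594 brighter probesets 3909 were called, a larger share than of the members. With a change of at least 2-fold also required, 2 members, 2 large and 0 small subunit members, 1 gene of the related lists (of 11) and 969 of 3590 probesets passed. With 1 array left out in turn, the counts were 9 to 14 members, 9 to 11 large and 0 to 4 small subunit members, 8 to 13 related genes and 2746 to 3960 probesets, the median member difference 0.09 to 0.17 and the difference of Bnip3 -3.53 to -2.87. A trended and robust variance and median centring left the counts of members at 11; quantile normalization gave 12 and array weights 14. Among the 26 named members no called difference changed sign under any alternative run. The number of arrays, and for Mrpl12 and Mrps34 signal at background, limit what could be seen.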
